A study of Mus musculus with 6 samples.

Results

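The genes described here are maternal-effect genes and members of oocyte-specific gene families, measured in whole mouse ovaries. They were chosen by symbol: genes whose names begin with Nlrp2, Nlrp4, Nlrp5, Nlrp9, Nlrp14, Oosp, Oog or Obox, together with Ooep, Khdc3, Tle6, Padi6, Zbed3, Zar1, Zar1l, Dppa3, Npm2, Btg4, Tcl1 and H1f8. A gene was kept when it had at least 10 counts in at least 3 of the 6 libraries. Of 35415 genes in the count table, 37 matched by symbol and 35 passed that minimum. The 2 left out were Obox3, with no count in any library, and Obox6, with 4 counts in wild-type replicate 3 and none elsewhere. The rule itself uses symbols and total detection, not the difference between genotypes, but it was drawn up with earlier results of these data known.

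The study measured bulk ovarian RNA to ask what loss of 1 copy of Rnf111 changes in the ovary. Rnf111 encodes a RING-type ubiquitin ligase, also called Arkadia, that acts in TGF-beta family signalling. The groups were 3 ovary libraries of Rnf111+/- mice and 3 of wild-type mice, each library named after its own mouse, and all mice were 3 months old and in estrus. The heterozygotes were made by CRISPR-Cas9 editing. The series describes 2 mouse models, and the sources used here do not say which of them these ovaries came from, which position was edited or what the strain was.

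Oocytes store RNA and protein that carry the embryo through its first divisions, before its own genome is transcribed. Genes whose loss in the mother arrests or impairs her embryos are called maternal-effect genes. Several of their products sit together beneath the oocyte surface as the subcortical maternal complex or build the fibrous cytoplasmic lattices, while others package chromatin, hold mRNA in store or direct its later decay. In rodents many of these genes lie in duplicated families that are transcribed almost entirely in oocytes.

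Libraries held 38261449 to 39474515 counts in Rnf111+/- ovaries and 38608892 to 39399888 counts in wild-type ovaries. Levels are given as CPM, the count scaled to library size. At this depth 3 counts correspond to 0.076 to 0.0784 CPM, taken here as the floor of detection for counting error. Rnf111 itself had 44.2, 44.9 and 44.7 CPM in the Rnf111+/- libraries, against 53.8, 53.5 and 54.4 CPM in wild type. The groups did not overlap, and the log2 fold change was -0.27 ± 0.07 (SE, adjusted p = 0.04, edgeR quasi-likelihood test). An exact two-sided permutation test gave p = 0.1, the smallest that 3 against 3 libraries allow. The edgeR call was lost when any library other than wild-type replicate 3 was left out (adjusted p = 0.106 to 0.146). Wild-type replicate 3 stood apart from the other two wild-type libraries, with correlations of 0.983 and 0.983 on the log2 CPM scale where the other pair reached 0.995. In that library the summed oviduct epithelium markers were at 160.5 CPM, against 3.36 to 9.94 CPM in the Rnf111+/- libraries and 2.11 and 7.26 CPM in the other wild-type libraries. Results on the oocyte genes are therefore also given without it.

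All 35 genes had a higher estimate in Rnf111+/- ovaries, and 17 of them rose at an adjusted p under 0.05 (edgeR quasi-likelihood test with Benjamini-Hochberg adjustment over 16841 genes). None fell at that threshold. The same rule called 9.64% of all tested genes, 3.9% as risen and 5.74% as fallen. At an unadjusted p under 0.05, 30 of the genes were higher and 0 lower, against 11.6% of tested genes higher. DESeq2 called 25 higher and 0 lower, where it called 6.12% of all genes it tested as higher, and limma-voom called 17 higher and 0 lower, where it called 4.04% as higher. The median log2 fold change was 0.66, a 1.58-fold higher level, with a range of 0.26 to 1.26, whereas the median over all tested genes was -0.01. In 28 of the 35 genes every Rnf111+/- library lay above every wild-type library, and no gene showed the opposite arrangement, where 15.1% of tested genes had all Rnf111+/- libraries above and 16.9% had them all below. Among all tested genes 48.7% had a fold change above 0. The 35 genes are read in the same 6 libraries, so they are not independent readings of the genotype. CPM is a share of all counts of an ovary library. In whole ovaries a larger number of oocytes, more RNA per oocyte and less RNA from other cells cannot be told apart.

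Summed over the 35 genes, the level was 827, 752 and 657 CPM in the Rnf111+/- libraries, against 539, 477 and 494 CPM in wild type. The sum averaged 745 ± 84.9 CPM in Rnf111+/- ovaries and 503 ± 32.1 CPM in wild type (SD, n = 3 each). The genes took 0.0841%, 0.0759% and 0.0658% of all counts in the Rnf111+/- libraries, against 0.0535%, 0.0468% and 0.0493% in wild type. The lowest Rnf111+/- library therefore stood above the highest wild-type library. Within the Rnf111+/- group replicate 1 was the highest of all 6 libraries for 27 of the 35 genes, and replicate 3 was the lowest of its group for 26. The median gene stood 0.84, 0.65 and 0.48 above the wild-type mean, on the log2 scale, in Rnf111+/- replicates 1, 2 and 3. Zbed3 alone made up 172 ± 8.97 CPM of the sum in Rnf111+/- ovaries and 126 ± 8.28 CPM in wild type, and without it the sum was 573 ± 79 CPM in Rnf111+/- ovaries and 377 ± 26.2 CPM in wild type (SD, n = 3 each). Without wild-type replicate 3, 19 genes rose, the 17 above among them, while the share of all tested genes that rose went up to 7.37%, against 3.9% with all libraries.

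**Figure D1:**
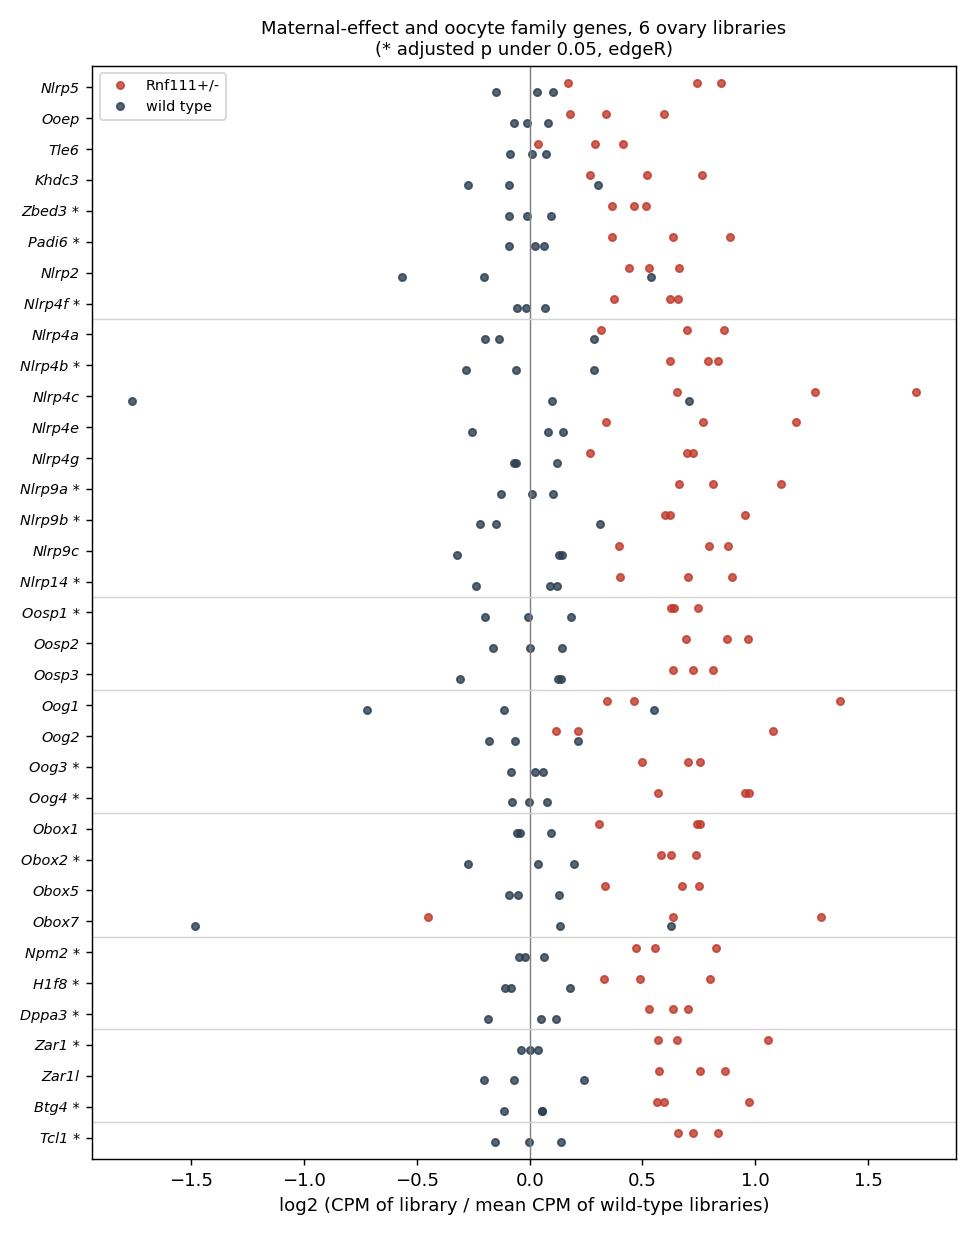
Level of each of the 35 genes in each library, as the log2 ratio of its CPM to the mean CPM of the wild-type libraries; red points are the 3 Rnf111+/- libraries, dark points the 3 wild-type libraries, grey lines separate groups of genes by role, and an asterisk marks an adjusted p under 0.05. The red points lie to the right of all dark points in 28 genes and overlap them in 7.

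Levels were compared between genes as CPM per kilobase of exon, with exon lengths from GENCODE M21, in which all 35 genes were found. Zbed3 stood first on this scale, at 77.2 ± 4 CPM per kilobase in Rnf111+/- ovaries and 56.5 ± 3.71 in wild type (SD, n = 3 each). Padi6 followed at 32.9 ± 5.92 CPM per kilobase in Rnf111+/- ovaries and 21 ± 1.14 in wild type, and H1f8 at 28.8 ± 4.86 in Rnf111+/- ovaries and 19.7 ± 2.24 in wild type. Nlrp4c was lowest, at 0.16 ± 0.0566 CPM per kilobase in Rnf111+/- ovaries and 0.0663 ± 0.0446 in wild type. The first 10 ranks, from Zbed3 to Obox2, had the same order in both genotypes.

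**Figure D2:**
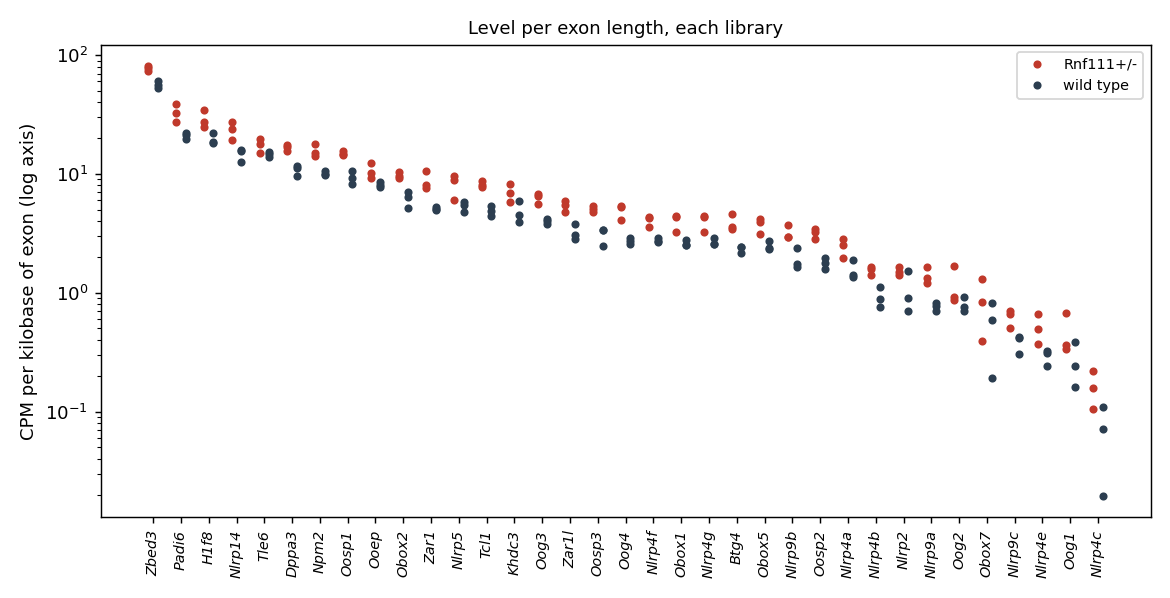
CPM per kilobase of exon for each of the 35 genes, on a log axis, with a point for each library, Rnf111+/- in red and wild type in dark. Genes are ordered by level, from Zbed3 at 77.2 CPM per kilobase in Rnf111+/- ovaries and 56.5 in wild type to Nlrp4c at the bottom of the range.

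The subcortical maternal complex is needed for the cleavage divisions of the mouse embryo. Of its 8 genes measured here, 3 rose (Zbed3, Padi6 and Nlrp4f), 5 did not pass the test and none fell, with a median log2 fold change of 0.54. At an unadjusted p under 0.05, 7 of the 8 were higher, and DESeq2 called 4. Zbed3, a zinc finger protein of the complex that also binds axin, had 174, 180.2 and 163 CPM in the Rnf111+/- libraries, against 135, 125 and 118 CPM in wild type. The groups were well separated and the change was the most precisely measured of all 35 genes, at a log2 fold change of 0.45 ± 0.07 (SE, adjusted p = 0.00968). Padi6, a peptidylarginine deiminase family member needed for the cytoplasmic lattices, had 98.7, 82.9 and 68.7 CPM in the Rnf111+/- libraries and 55.6, 50.1 and 54.2 CPM in wild type. Its lowest Rnf111+/- library was replicate 3, still above all wild-type libraries, and its log2 fold change was 0.65 ± 0.12 (SE, adjusted p = 0.0174). Nlrp4f, a NOD-like receptor family protein found in the complex, had 16.4, 16.8 and 13.8 CPM in Rnf111+/- ovaries and 11.2, 10.6 and 10.3 CPM in wild type, a log2 fold change of 0.56 ± 0.13 (SE, adjusted p = 0.0317).

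Nlrp5, also called Mater and a classic maternal-effect gene of mice, had 46.7, 43.4 and 29.2 CPM in the Rnf111+/- libraries and 26.5, 23.4 and 27.9 CPM in wild type. Replicate 3 of the Rnf111+/- group lay just above the wild-type range, and the log2 fold change of 0.62 ± 0.17 (SE) missed the threshold at an adjusted p of 0.0619. DESeq2 gave an adjusted p of 0.00659 for the same gene. Ooep, an RNA-binding-domain protein also called Floped, had 26.2, 21.9 and 19.6 CPM in Rnf111+/- ovaries and 18.3, 16.5 and 17.2 CPM in wild type, without overlap (log2 fold change 0.38 ± 0.13, SE, adjusted p = 0.103). Tle6, a Groucho family protein that acts as a structural part of the complex, had 60.2, 55.1 and 46.3 CPM in Rnf111+/- ovaries and 47.4, 42.5 and 45.5 CPM in wild type. Here the lowest Rnf111+/- library lay inside the wild-type range, and Tle6 had the smallest estimate of the 35 genes, 0.26 ± 0.11 (SE, adjusted p = 0.173). Khdc3, or Filia, had 16.7, 14.1 and 11.9 CPM in Rnf111+/- ovaries and 12.2, 9.23 and 8.15 CPM in wild type, with overlap and an adjusted p of 0.124. Of its 75-base stretches 31.3% also occur in another gene, with Gm20509 sharing the most, which makes its count uncertain. Nlrp2 had 5.28, 5.8 and 4.96 CPM in the Rnf111+/- libraries and 5.32, 3.19 and 2.48 CPM in wild type, where replicate 1 was as high as the Rnf111+/- libraries (adjusted p = 0.274).

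The other NLRP genes of oocytes are Nlrp14, whose maternal loss arrests mouse embryos, and the Nlrp4 and Nlrp9 paralogs. Of these 9 genes 4 rose, 5 did not pass and none fell, with a median log2 fold change of 0.74. Nlrp14 had 97, 84.8 and 68.8 CPM in the Rnf111+/- libraries and 56.7, 44.1 and 55.4 CPM in wild type. All Rnf111+/- libraries were above the wild-type range, at a log2 fold change of 0.68 ± 0.14 (SE, adjusted p = 0.0254). Nlrp9a had 5.73, 4.19 and 4.65 CPM in Rnf111+/- ovaries and 2.84, 2.67 and 2.43 CPM in wild type, the largest estimate among the genes that rose, 0.88 ± 0.21 (SE, adjusted p = 0.0363). Nlrp9b had 13.9, 11.1 and 10.9 CPM in Rnf111+/- ovaries and 8.9, 6.17 and 6.46 CPM in wild type (log2 fold change 0.74 ± 0.19, SE, adjusted p = 0.0451). Nlrp4b, with 7.37, 7.15 and 6.35 CPM in Rnf111+/- ovaries and 5.04, 3.4 and 3.96 CPM in wild type, lay at the threshold with an adjusted p of 0.0499. Nlrp4c was the least counted of all, with 35, 25 and 16 counts in the Rnf111+/- libraries and 3, 11 and 17 counts in wild type. Its groups overlapped, and its estimate of 1.26 ± 0.62 (SE) was the largest and the least precise of the 35 (adjusted p = 0.244). Nlrp4a, Nlrp4e, Nlrp4g and Nlrp9c had log2 fold changes of 0.58 to 0.80 and adjusted p values of 0.08 to 0.177.

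The oocyte-secreted proteins of the Oosp family are small secreted proteins encoded in a cluster on chromosome 19. Oosp1 had 14.1, 15.3 and 14.2 CPM in the Rnf111+/- libraries and 10.3, 9.04 and 7.92 CPM in wild type, and the Rnf111+/- libraries differed little among themselves. It rose by a log2 fold change of 0.67 ± 0.14 (SE, adjusted p = 0.0226). Oosp2 had 2.34, 2.2 and 1.93 CPM in Rnf111+/- ovaries and 1.07, 1.32 and 1.2 CPM in wild type (adjusted p = 0.0863). Oosp3 had 4.18, 3.93 and 4.44 CPM in Rnf111+/- ovaries and 2.77, 2.05 and 2.78 CPM in wild type (adjusted p = 0.0747). Neither of these passed the test, although their groups did not overlap.

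The Oog genes encode leucine-rich repeat proteins of the Prame-like family. Oog4 had 10.5, 8.05 and 10.6 CPM in the Rnf111+/- libraries and 5.71, 5.13 and 5.41 CPM in wild type, at a log2 fold change of 0.84 ± 0.17 (SE, adjusted p = 0.0193). Oog3 had 12.5, 12.1 and 10.5 CPM in Rnf111+/- ovaries and 7.72, 7 and 7.53 CPM in wild type, at a log2 fold change of 0.66 ± 0.14 (SE, adjusted p = 0.0251). Both rose with no overlap between groups, whereas Oog1 (adjusted p = 0.335) and Oog2 (adjusted p = 0.337) had overlapping groups. Most 75-base stretches of Oog1, 82.8%, also occur in another gene, with Gm2042 sharing the most, so its count is uncertain. The bases before the start sites of both genes that rose are shown because these paralogs both rose and their sequences can be read side by side. They are the 100 bases before each annotated start in RefSeq, GRCm38.p6, minus strand, chr4:144162652-144162751 for Oog3 and chr4:143450325-143450424 for Oog4, 5′ to 3′. Capitals mark each CANNTG, the E-box, and each TATAAA or TATATA, which overlap each other in Oog3.
Oog3: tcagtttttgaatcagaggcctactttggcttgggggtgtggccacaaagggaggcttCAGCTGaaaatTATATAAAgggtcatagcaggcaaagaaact
Oog4: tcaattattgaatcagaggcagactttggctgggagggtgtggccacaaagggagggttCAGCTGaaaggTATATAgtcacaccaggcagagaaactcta

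Obox genes encode homeobox proteins that act around activation of the mouse embryonic genome. Of the 4 measured, Obox2 rose, with 15.7, 17 and 15.2 CPM in the Rnf111+/- libraries and 11.7, 10.4 and 8.43 CPM in wild type (log2 fold change 0.65 ± 0.15, SE, adjusted p = 0.0303). Obox5 (adjusted p = 0.0703) and Obox1 (adjusted p = 0.0712) did not pass, with estimates of 0.60 and 0.62 and no overlap between groups. Obox7 had 2.09, 1.33 and 0.627 CPM in Rnf111+/- ovaries and 0.939, 1.32 and 0.306 CPM in wild type, with overlap. It was the one gene of the 35 with an Rnf111+/- library below the wild-type mean. Of the 75-base stretches of Obox1 47.2%, and of those of Obox2 52.6%, also occur in another gene, mostly each other, so how reads were divided between them is uncertain. The windows of Obox1, Obox2, Obox5 and Obox7 around their starts hold a common run of 44 bases with an E-box. It lies at bases -101 to -58 in Obox1, -113 to -70 in Obox5 and -87 to -44 in Obox7. In Obox2, the gene that rose, it lies at -4 to 39, mostly past the annotated start. The run and the 100 bases before 2 of the starts are shown, from RefSeq GRCm38.p6, plus strand, chr7:15547157-15547256 for Obox1 and chr7:15750270-15750369 for Obox5, with the same capitals.
Common run: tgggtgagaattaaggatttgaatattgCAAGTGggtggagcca
Obox1: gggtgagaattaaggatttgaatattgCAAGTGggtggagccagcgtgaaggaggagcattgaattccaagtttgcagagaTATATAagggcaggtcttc
Obox5: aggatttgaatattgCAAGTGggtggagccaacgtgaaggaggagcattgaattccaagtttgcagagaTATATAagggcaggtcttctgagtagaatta

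Because close copies can exchange reads, each family was also summed before the test, which does not depend on how reads were divided within it. A sum does not settle reads shared with genes outside the family. Of the 75-base stretches, 22.5% of Oog2, 13.6% of Oog3 and 20.1% of Nlrp4e also occur in another gene. The genes sharing most with these were Gm13084, Gm4350 and Gm8486, which like Gm2042 for Oog1 are outside the sums. Of 8 families 6 rose, against 4% of features in that fit. The Oosp sum was 20.7, 21.3 and 20.6 CPM in the Rnf111+/- libraries and 14.2, 12.4 and 11.9 CPM in wild type (log2 fold change 0.70 ± 0.11, SE, adjusted p = 0.00834). The Obox sum was 35.3, 32.8 and 30.9 CPM in Rnf111+/- ovaries and 22.5, 22.3 and 19.1 CPM in wild type (0.63 ± 0.10, SE, adjusted p = 0.00927). The Oog sum was 29.1, 23.0 and 24.4 CPM in Rnf111+/- ovaries and 15.6, 14.6 and 16.2 CPM in wild type (0.72 ± 0.12, SE, adjusted p = 0.00961). None of these overlapped between groups. The Nlrp4 sum (0.63 ± 0.12, SE, adjusted p = 0.0183), the Nlrp9 sum (0.77 ± 0.16, SE, adjusted p = 0.021) and Nlrp14 rose too. Nlrp14 is a single gene and not a sum, as are Nlrp5 and Nlrp2, which did not pass. The count of families was 3 without Rnf111+/- replicate 1, without Rnf111+/- replicate 2 or without wild-type replicate 2.

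**Figure D3:**
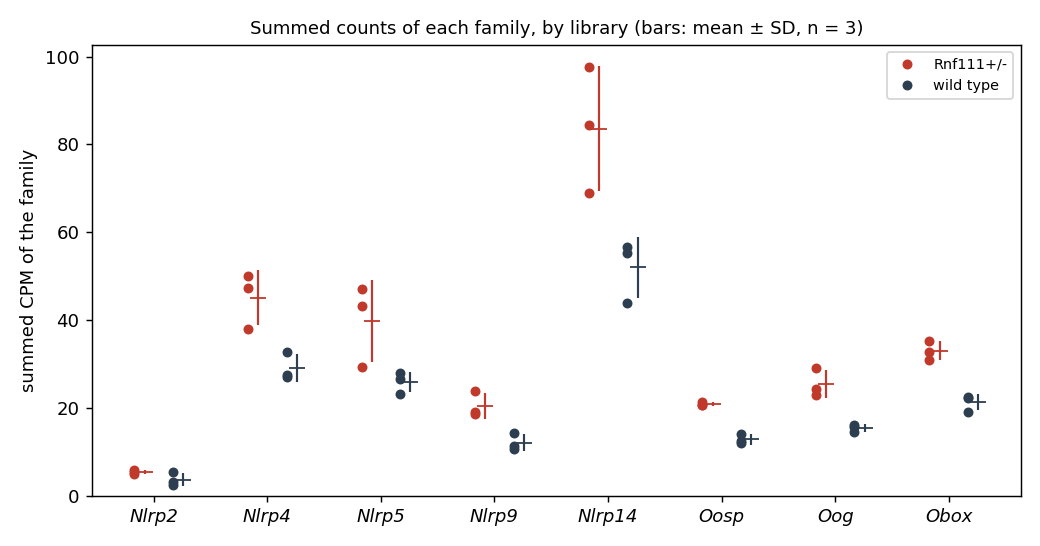
Summed CPM of each of the 8 families in each library, with bars for the mean and error bars for the SD (n = 3), Rnf111+/- in red at the left of each pair and wild type in dark at the right. The Oosp sums lie at 20.6 to 21.3 CPM in Rnf111+/- libraries and at 11.9 to 14.2 CPM in wild type.

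Among factors that act on chromatin, all 3 rose. Npm2, a nucleoplasmin that remodels sperm chromatin after fertilization, had 18.6, 15.4 and 14.6 CPM in the Rnf111+/- libraries and 10.2, 10.4 and 11 CPM in wild type (log2 fold change 0.62 ± 0.14, SE, adjusted p = 0.0252). Dppa3, also called Stella, protects maternal DNA methylation in the zygote and had 15.7, 13.9 and 15 CPM in Rnf111+/- ovaries and 10.5, 8.5 and 10.01 CPM in wild type (log2 fold change 0.62 ± 0.14, SE, adjusted p = 0.0253). H1f8, the linker histone of oocytes, had 41, 33.1 and 29.7 CPM in Rnf111+/- ovaries and 26.7, 22.3 and 21.9 CPM in wild type (log2 fold change 0.55 ± 0.14, SE, adjusted p = 0.042). None of the 3 overlapped between groups.

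Regulators of stored mRNA included Zar1, which keeps maternal mRNA stable and was the gene whose call held when any 1 of the 6 libraries was left out. Zar1 had 36.8, 27.8 and 26.2 CPM in the Rnf111+/- libraries and 17.2, 18.1 and 17.7 CPM in wild type, where the libraries were nearly equal. Its log2 fold change was 0.78 ± 0.14 (SE, adjusted p = 0.0119), with adjusted p up to 0.0425 when a library was left out. Of its 75-base stretches 20.7% also occur in another gene, with Gm42668 sharing the most, so part of its count is uncertain. Btg4, an adaptor that brings the CCR4-NOT deadenylase to maternal mRNA, had 11.8, 9.07 and 8.86 CPM in Rnf111+/- ovaries and 5.53, 6.22 and 6.23 CPM in wild type (log2 fold change 0.72 ± 0.17, SE, adjusted p = 0.033). Zar1l had 5.28, 4.32 and 4.88 CPM in Rnf111+/- ovaries and 3.42, 2.51 and 2.76 CPM in wild type and missed the threshold (adjusted p = 0.0635). Tcl1, a coactivator of the kinase AKT needed for cleavage, had 14.9, 16 and 14.2 CPM in Rnf111+/- ovaries and 9.92, 8.09 and 8.99 CPM in wild type. It rose by a log2 fold change of 0.74 ± 0.14 (SE, adjusted p = 0.0133), and it and Zbed3 held in 5 of 6 such fits.

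Zbed3, Zar1 and Tcl1 had the smallest adjusted p values of the 35 genes, and the 100 bases before an annotated start of each are given for that reason. They are from RefSeq, GRCm38.p6, 5′ to 3′, at chr13:95323505-95323604 on the plus strand for the first of 3 Zbed3 starts, chr5:72581085-72581184 on the minus strand for Zar1 and chr12:105222738-105222837 on the minus strand for Tcl1. Capitals mark CANNTG and TATAAA or TATATA.
Zbed3: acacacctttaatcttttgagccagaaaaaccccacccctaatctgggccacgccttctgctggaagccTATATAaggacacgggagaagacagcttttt
Zar1: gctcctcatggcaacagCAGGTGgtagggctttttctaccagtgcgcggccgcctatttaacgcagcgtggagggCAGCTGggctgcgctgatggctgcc
Tcl1: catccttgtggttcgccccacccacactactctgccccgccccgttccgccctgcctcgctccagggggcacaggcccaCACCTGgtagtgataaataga
RefSeq start windows were matched for 30 of the 35 genes, 36 windows in all, with none for Dppa3, Nlrp14, Nlrp4g, Npm2 and Oosp3. An E-box, the motif that the oocyte factor FIGLA binds with a partner, lay in the 250 bases before a start in 28 of the 30 genes, against 69.3% of all genes in that table. TATAAA or TATATA on the sense strand between bases -45 and -11 was present in 6 of the 30, namely Zbed3, Oog2, Oog3, Oog4, Obox1 and Obox5, against 3.74% of all genes. For Zbed3 it lay before the first of its 3 starts only. Paralogs can have copied windows, so the 30 genes are not independent counts. The windows of Obox1 and Obox5, for example, were 78.1% identical over 288 aligned bases. The word TAATTG, searched on both strands, was found in 6 of the 30 genes, against 8.3% of all genes. The word TGATTG was found in 9 genes, against 14.5% of all, and TAATTA in 2, against 5.65% of all. The word TATAAA anywhere in the 250 bases, on either strand, was found in 5 of the 30 genes, against 14.3% of all. TAATTA reads the same on both strands, as does every match to CANNTG as a pattern. These matches describe letters in a window and were not tested against the expression values.

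The same measurement was made in 25 other oocyte genes that belong to none of these families, among them the zona pellucida genes and the oocyte growth factors. Of these 25, 6 rose and none fell (19 and 0 at an unadjusted p under 0.05), with a median log2 fold change of 0.67. Gdf9, an oocyte growth factor, had 84.6, 71.1 and 66.1 CPM in Rnf111+/- ovaries and 46.9, 47.1 and 48.9 CPM in wild type (0.63 ± 0.10, SE, adjusted p = 0.00707). Zp1 (0.81 ± 0.14, adjusted p = 0.0118), Zp2 (0.74 ± 0.15, adjusted p = 0.0226) and Oas1d (0.65 ± 0.14, adjusted p = 0.0232) also rose, as log2 fold changes ± SE. Of the 25 estimates 23 were above 0. Ddx4 and Sohlh1, which mark germ cells and early oocytes and were picked out after their values were seen, had log2 fold changes of -0.01 ± 0.38 and -0.02 ± 0.43 (SE, adjusted p = 0.993 and 0.986). Other such markers in the list, named for comparison, had higher estimates. Nobox rose (0.81 ± 0.18, SE, adjusted p = 0.026). Lhx8, Figla and Dazl had 0.72 ± 0.295, 0.68 ± 0.43 and 0.47 ± 0.26 (SE, adjusted p = 0.169, 0.368 and 0.312). The 28 measured genes of other oocyte paralog families, of which Oas1c, Oas1d and Oas1h are also among the 25, had a median of 0.60, and 7 rose.

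Lists that hold genes of wider expression were measured too. Among 21 genes of mRNA storage and decay, of which Dazl, Pabpc1l and Ybx2 are also among the 25 oocyte genes above, 3 rose and none fell, with a median log2 fold change of 0.26, and Cnot6, a CCR4-NOT deadenylase, had 0.53 ± 0.09 (SE, adjusted p = 0.00863). None of 20 chromatin regulators with maternal roles passed the edgeR test (3 higher and 0 lower at an unadjusted p under 0.05), with a median of 0.05. Among 11 NLR genes of other tissues the median was -0.04 and Nlrp10 rose (1.15 ± 0.24, SE, adjusted p = 0.0227). Of 21 tested paralogs of the 35 genes outside the families 3 rose, namely Tle1, Tle3 and Tle4, and 2 fell, namely Tle5 (-0.47 ± 0.08, SE, adjusted p = 0.0112) and Btg2 (-0.82 ± 0.19, SE, adjusted p = 0.0388, named after its value was seen), with a median of -0.02.

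**Figure D4:**
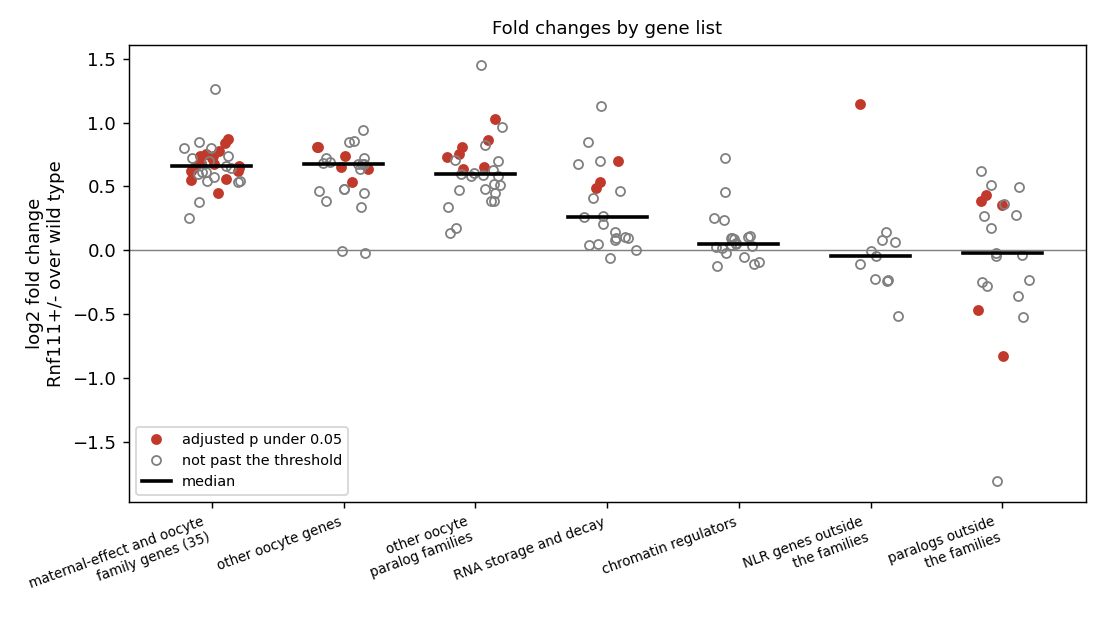
Log2 fold change of Rnf111+/- over wild type for each gene of 7 lists, filled red where the adjusted p was under 0.05 and open grey otherwise, with a bar at each median. The medians are 0.66 for the 35 maternal-effect and oocyte family genes, 0.67 for other oocyte genes, 0.60 for other oocyte paralog families and between -0.04 and 0.26 for the remaining lists.

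Other cell types of the ovary differed between libraries as well. The 8 granulosa markers summed to 4479 to 6761 CPM in Rnf111+/- ovaries and 5793, 5305 and 2503 CPM in wild-type replicates 1, 2 and 3. Of the 8 estimates 6 were above 0, and 1 gene rose, Cyp19a1 (2.35 ± 0.385, SE, adjusted p = 0.0188). Cyp19a1 had 72.2, 49.8 and 27.4 CPM in Rnf111+/- ovaries and 11.5, 10.7 and 7.25 CPM in wild type. Fshr also had all Rnf111+/- libraries above wild type (1.08 ± 0.29, SE, adjusted p = 0.068). The 5 luteal markers summed to 4671 to 7147 CPM in Rnf111+/- ovaries and 744 to 2231 CPM in wild type, without overlap. Sfrp4 and Akr1c18 made up most of that sum in the Rnf111+/- libraries, with log2 fold changes of 2.56 ± 0.71 and 3.13 ± 1.06 (SE, adjusted p = 0.0972 and 0.153). Ptgfr had 1.79 ± 0.84 (SE, adjusted p = 0.268). In these 3 genes all Rnf111+/- libraries lay above wild type. Wild-type replicates 1, 2 and 3 had 86.1, 66.7 and 676 CPM of Akr1c18. For Sfrp4 they had 178, 268 and 890 CPM, so replicate 3 widened the spread of both. Parm1 fell (-2.22 ± 0.16, SE, adjusted p = 0.000323). Lhcgr, named to complete the list, had -0.74 ± 0.56 (SE, adjusted p = 0.48) with overlapping groups. The 5 theca markers summed to 4669 to 6600 CPM in Rnf111+/- ovaries and 6405 to 7832 CPM in wild type, and Cyp11a1 carried most of that sum. Cyp17a1, which makes androgen precursors, was at 174, 158 and 259 CPM in Rnf111+/- ovaries and 2.48, 4.48 and 1.48 CPM in wild type, the highest log2 fold change of all tested genes at 6.13 ± 0.45 (SE, adjusted p = 0.00173). Star, which moves cholesterol into mitochondria, fell (-0.84 ± 0.12, SE, adjusted p = 0.00467), and Cyp11a1 had -0.335 ± 0.15 (SE, adjusted p = 0.215). The theca markers Insl3 and Ptch1 had 1.09 ± 0.41 and 0.27 ± 0.10 (SE, adjusted p = 0.134 and 0.142), with all Rnf111+/- libraries above wild type. The cumulus markers summed to 5.18 to 8.71 CPM in Rnf111+/- ovaries and 5.18 to 7.69 CPM in wild type, and none was called. The part of these shifts in the oocyte gene results was not tested. Markers of embryonic genome activation were near the floor, at 0.0747 to 0.255 CPM in Rnf111+/- ovaries and 0 to 0.0511 CPM in wild type over 5 genes.

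To ask whether any of the 35 genes differed beyond the other oocyte genes, each library was scaled to its summed counts of the 25 oocyte genes above. On this scale none was higher and none lower at an adjusted p under 0.05 (edgeR, with 0 higher and 1 lower at an unadjusted p under 0.05). The SE was 0.185 for Zbed3, 0.19 for Tle6 and 0.209 for Ooep, against 0.075, 0.106 and 0.128 with scaling to all genes. Small differences from the other oocyte genes could therefore go uncalled, and the lack of calls does not show that there were none. The scaling lowers the estimates of all genes together, to a median of -0.63, so that it called 1.44% of all tested genes as higher and 64.3% as lower, or 1.57% and 67.2% at an unadjusted p under 0.05. The median of the 35 genes was 0.03, with a range of -0.38 to 0.57, and 21 of them were above 0. Tle6 had 152, 155 and 157 counts per 1000 counts of those oocyte genes in the Rnf111+/- libraries, against 192, 194 and 218 in wild type. It was the gene lowest on this scale, with non-overlapping groups (log2 fold change -0.38, adjusted p = 0.0664). Ooep, the other gene of the 35 with all Rnf111+/- libraries below, had 66.2, 61.8 and 66.3 counts per 1000 in Rnf111+/- ovaries, against 74.2, 75.3 and 82.3 in wild type. On this scale 65.1% of all tested genes had all Rnf111+/- libraries below and 1.41% had them all above. Padi6 had 250, 234 and 233 counts per 1000 in Rnf111+/- ovaries and 226, 229 and 260 in wild type, which overlapped.

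**Figure D5:**
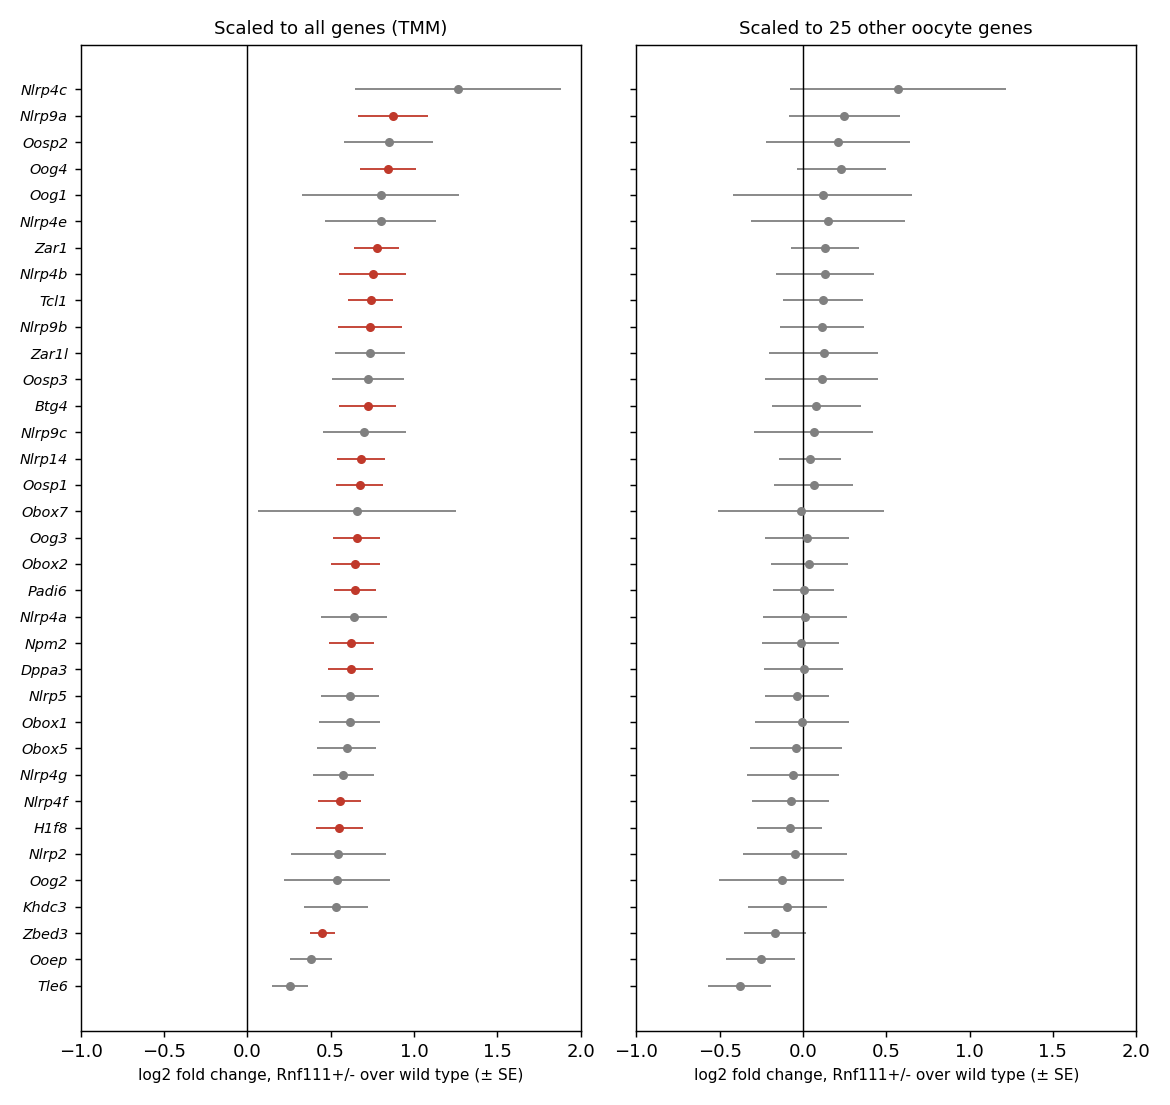
Log2 fold change of Rnf111+/- over wild type (± SE) for the 35 genes, scaled to all genes at the left and to 25 other oocyte genes at the right, red where the adjusted p was under 0.05. The estimates at the left run from 0.26 to 1.26 and those at the right from -0.38 to 0.57, with Tle6 lowest in both.

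Of the 35 log2 fold changes 31 lay between 0.5 and 0.9, and 32 were within 2 SE of the median of 0.66. Those outside were Ooep, Tle6 and Zbed3, all below it and all of the subcortical maternal complex, which was seen after the values were known. The other genes of the complex, among them Padi6 at 0.65 and Nlrp5 at 0.62, were within 2 SE. Zbed3 had the smallest SE of the 35 genes, 0.075. Scaled to the 25 oocyte genes, Zbed3 and Ooep had -0.17 ± 0.185 and -0.25 ± 0.209 (SE). Both were then within 2 SE of the median of 0.03, whereas Tle6 was not (-0.38 ± 0.19, SE). On chromosome 7, which holds 14 of the genes, 5 rose with a median of 0.67, and of the 21 on the other 9 chromosomes 12 rose with a median of 0.65. When 1 library was left out, all 35 estimates stayed above 0 in each of the 6 fits. The number that rose was then 4, 2 and 6 without Rnf111+/- replicates 1, 2 and 3, and 9, 3 and 19 without wild-type replicates 1, 2 and 3. The shares of all tested genes that rose in those fits were 2.22%, 1.35% and 1.3% without the Rnf111+/- replicates, and 1.97%, 1.83% and 7.37% without the wild-type replicates.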

How the data were processed

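The authors deposited 1 table of raw read counts per gene for all 6 libraries, and every column was matched to a sample by the column name given in the labels. Per the submitters' processing notes, the tools were HTSeq 0.11.2, fastp 0.20.1, DESeq2 1.38.3 and HISAT2 2.1.0, and the genome build was GRCm39. The gene annotation, strand setting, read length and treatment of multiply mapping reads are not stated there or in the labels, so counts of close paralogs, overlapping and antisense genes are uncertain.

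From the counts, edgeR 4.0.16 in R 4.3.3 was run with TMM scaling, filterByExpr and the robust quasi-likelihood test, genotype alone in the model and Benjamini-Hochberg adjustment over 16841 genes at a threshold of 0.05. The SE of an estimate was taken as its size over the root of its F statistic. CPM used TMM-scaled library totals. Family sums were fitted in place of their rows, and a further fit scaled libraries to 25 oocyte genes. The default edgeR fit alone was tested on simulated data, and the other fits were not. The simulation used the same dispersion for all genes, and its changes were larger than the median of the 35 genes. Alternatives were other scalings, filters, DESeq2 1.42.0, limma-voom 3.58.1, a replicate block and leaving out each library. Libraries were treated as replicates and differed by more than counting noise. The genes and lists were chosen with earlier results of these data known. Named genes were Rnf111, the 35 genes, and up to 4 genes of smallest p from each other list, with exceptions stated. Of the luteal and the theca markers all 5 were named. Exon lengths and shared 75-base stretches came from GENCODE M21 (GRCm38), and start-site sequences from RefSeq (GRCm38.p6). No coordinates were converted between builds.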

Additional observations from a re-analysis of the deposited data

How the results depend on the processing

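No estimate of the 35 genes turned negative under any alternative run. In all, 17 rose under both other scalings, the stricter filter (33 tested) and limma-voom, 18 without a filter and 25 with DESeq2. The shares of all tested genes that rose were 4.1% with DESeq2 size factors and 4.7% with upper-quartile scaling. They were 5.08% with the stricter filter, 4.04% with limma-voom, 2.93% without a filter and 6.12% with DESeq2. Left-out libraries gave 2 to 19 risen and 0 fallen, 3 to 6 risen families, 5 to 33 risen and 2 to 5 fallen genes in the companion lists (21 and 4 with all libraries, 43 risen with DESeq2), and, over all genes, 224 to 1273 risen and 297 to 1522 fallen, against 657 and 966 with all libraries and 1130 risen with DESeq2. Rnf111 ranged from -0.27 to -0.26 without a library and missed the threshold with upper-quartile scaling (-0.24, adjusted p = 0.0602) and without a filter (-0.27, adjusted p = 0.0762). Relative to oocyte genes, 0 were higher and 0 to 1 lower when a library was left out (Tle6 without Rnf111+/- replicate 3, adjusted p = 0.0413), and 1, Tle6, was lower when scaled to Gdf9, Bmp15 and zona genes (adjusted p = 0.0387). The causes were not tested. Deviations of same-numbered libraries had correlations of 0.023, 0.031 and 0.166, and those of differently numbered libraries -0.129 to 0.106. These values do not settle whether the numbers pair the libraries. With a replicate block 16 genes rose, against 4.03% of all tested genes. Of the 16, 14 were shared with the main fit, and Btg4, Nlrp4b and Nlrp9a were lost. With that block Rnf111 was at -0.27 (adjusted p = 0.0653), and Tle6 was lower relative to oocyte genes (1 gene, adjusted p = 0.00937). The fewest counts were those of Nlrp4c, at 3 to 35 a library.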
